A study of Mus musculus with 12 samples.

Results

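The comparison described here set the hippocampus of mice that had lost CREB and CREM against that of control mice, pooling the saline and the kainate animals of each genotype. All 12 arrays of the study entered it, 6 from mutants and 6 from controls, chosen by their sample titles, and 12422 of the 12488 probe sets were tested after the manufacturer's control probe sets were set aside. The control saline and mutant saline groups received saline, and the control kainate and mutant kainate groups received 20 mg/kg kainate, a glutamate receptor agonist that evokes seizures, by the intraperitoneal route. Each of these 4 groups had 3 arrays. All animals were littermate males and females of 5 to 6 weeks, handled for 5 days in single cages and killed 1 hour after the injection. Each array carried hippocampal RNA of 3 animals, so that the unit of replication was the pool. Loss of CREB and CREM is known here from the study's title, and neither the means of disruption, nor the cells it reached, nor the alleles of the control animals are stated in the labels.

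CREB and its relative CREM are transcription factors that bind the cAMP response element, a short palindrome found mostly close to the start of genes, and switch such genes on when cAMP or calcium signals lead to their phosphorylation. In hippocampal neurons they are known for activity-regulated transcription, plasticity and neuronal survival. Many genes with such an element are also served by related factors of the ATF family, and genes without it can differ in a mutant tissue through changes in its cells.

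Values were log2 levels, and a difference of 1 on this scale is a factor of 2. A difference is given as mutant minus control from a limma fit with treatment and replicate number as further terms, with its standard error (SE) over 6 against 6 arrays. A probe set passed where its Benjamini-Hochberg adjusted p lay under 0.05. The arrays correlated with each other at 0.973 to 0.998, and the control kainate replicate 3 array stood apart, its values having an interquartile range of 3.74 where the other arrays had 4.40 to 4.61. The 3 Creb1 probe sets differed by -0.09, -0.12 and -0.11 (adjusted p = 0.581 each) and the 2 Crem probe sets by -0.25 (adjusted p = 0.241) and -0.29 (adjusted p = 0.301). Their position within the 2 genes, and so outside or inside the parts removed, is unknown, and they are no check of the loss. Neuronal tissue was plain from Snap25, a synaptic protein at 13.15 to 13.58 on all arrays, while Prox1, a marker of dentate granule neurons, was dim at 3.45 to 4.26. Males and females both entered the pools in shares not stated, and sex-linked genes varied widely within both genotypes: Xist, the RNA of the inactive X chromosome, ran from 3.23 to 6.49 on control and from 3.68 to 7.59 on mutant arrays (difference 1.23, SE 0.33, adjusted p = 0.154). The Y chromosome genes Eif2s3y, Uty and Kdm5d stood at -0.47, -0.2 and -0.15 (adjusted p = 0.572, 0.581 and 0.581 in limma). Of 8 sex-linked genes 0 passed and 4 had an unadjusted p under 0.05 in limma, a larger share than the 887 of all 8251 genes. Whether the genotypes differed in their shares of males and females was not tested.

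Over all probe sets the genotype difference was small, with a median of -0.06 and an interquartile range from -0.10 to 0.05. In limma 123 probe sets passed, 0.99% of those tested, of which 89 were higher in mutants (0.716%) and 34 lower (0.274%). An unadjusted p under 0.05 was reached by 1108 probe sets (8.92%), where 621 would be reached by chance. The smallest difference that passed was 0.28 and the largest 3.14, beside a median SE of 0.0867. The share of higher calls was 72.4%, and it moved with the scaling of the arrays: quantile normalisation of the deposited values gave 90 higher and 60 lower, and centring each array on its median gave 80 higher and 17 lower. The counts also moved with single arrays, as the plot of probe sets passing with each array left out shows. Without the control kainate replicate 3 array 225 passed (129 higher and 96 lower), of which 113 were among the 123, while without mutant saline replicate 1 the count was 81, and without mutant kainate replicate 2 or 3 it was 79.

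**Figure D1:**
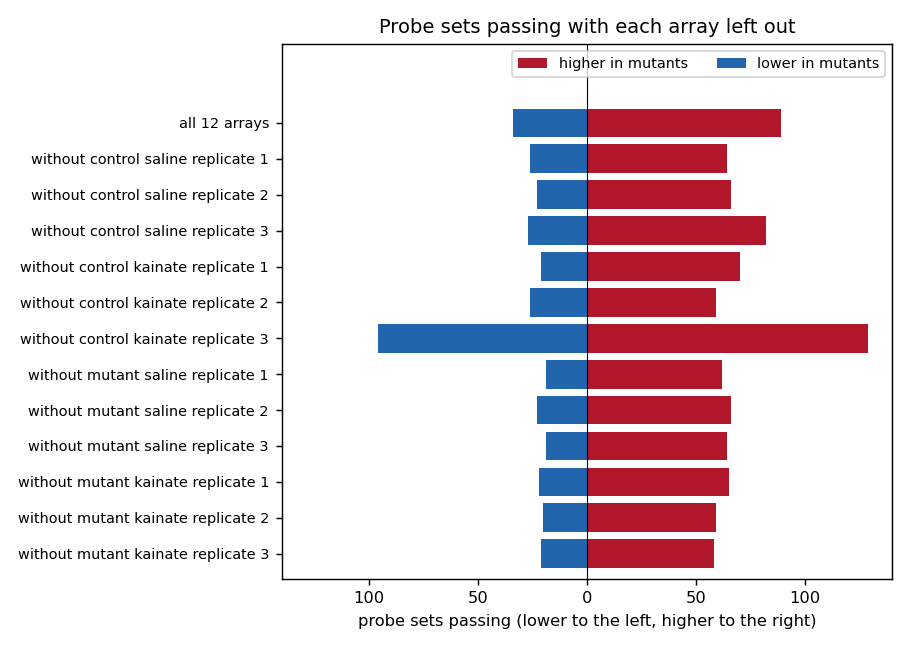
Number of probe sets passing the genotype comparison in limma (adjusted p under 0.05), with bars to the right for those higher and to the left for those lower in mutants, for all 12 arrays and with each array left out. The count runs from 79 to 225, and the longest bars on both sides belong to the fit without the control kainate replicate 3 array.

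The calls fell into 2 kinds of gene. Of 73 genes higher in mutants 36 were on lists of glial, immune or other-cell markers and 37 were on none of them, while of 29 lower genes 1, Penk, was on such a list and 28 were not. The differences on those lists were the larger ones: 18 of 39 higher probe sets reached 1 or more, with a median of 0.91, against 2 of 39 and a median of 0.55 among the higher probe sets outside the lists. Microglia markers give the measure of that background. Of 37 measured, 11 passed higher and 0 lower, and their summed level on the linear scale ran from 2660 to 3244 on control arrays and from 4374 to 6231 on mutant arrays, with no overlap, although 19 of the 37 lay below the median of the arrays. Astrocyte markers passed higher for 3 of 25 (summed level 48106 to 56929 in controls, 56755 to 63839 in mutants), reactive glia genes for 9 of 43 (9798 to 11673 and 14074 to 15902) and lysosomal proteins for 6 of 37 (15152 to 17679 and 18864 to 20073). Oligodendrocyte markers passed for 0 of 19, and their summed levels overlapped. Of all 8251 genes, each taken by its brightest probe set, 1.2% passed, 0.861% higher and 0.339% lower, and 0 of 19 lies near that share. In bulk tissue more cells of a type and more RNA per cell cannot be told apart, and the part of these cells in the differences described next was not tested.

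Modest differences were then set apart from the strongest glial genes. A probe set was counted as modest and independent of treatment where it passed, differed by less than 1, kept its sign in all 6 pairs of arrays with the same treatment and replicate number, had a saline and a kainate difference of the same sign with the smaller at least 0.5 of the larger, and belonged to 1 gene on none of the glial, immune or other-cell lists. The condition on the 6 pairs alone was met by 28.8% of all probe sets. All conditions together chose 58 probe sets of 56 genes, 33 higher and 23 lower in mutants. The median difference was 0.53 among the higher ones (0.31 to 0.97) and -0.57 among the lower ones (0.28 to 0.99 in size). Just inside the limit of 1 lay Lefty1 at -0.99 and Tmem176a at 0.97, and just outside it Coq7 at 1.03 and Wfs1 at -1.04. The mutant arrays lay wholly beyond the control arrays for 31 of the 58, as they did for 0.974% of all probe sets. Since the calls chose these members, that count is a description.

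Most of these differences did not pass in either treatment by itself. Of the 58 probe sets, 41 passed neither within saline nor within kainate, where 0.242% and 0.539% of all probe sets passed. The saline and kainate differences of a member lay close together, with a median ratio of the smaller to the larger of 0.81, a limit of 0.5 being part of the choice. The difference between them had a median size of 0.11 beside a median SE of 0.16, and the largest was 0.43. In limma 0 of 12422 probe sets (0.0%) passed for that interaction, and 201 (1.62%) had an unadjusted p under 0.05. Among them were 3 of the 58, Cyp1b1, Rnps1 and Bcl2l2. The 201 are fewer than the 621 that would be reached by chance. With a median SE of 0.16 the data do not show that the 2 treatments gave equal differences. The difference was the larger one under kainate for 27 of the 35 higher and 10 of the 23 lower probe sets. Without the control kainate replicate 3 array 4 probe sets passed for the interaction, and none of them belongs to the 58.

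**Figure D2:**
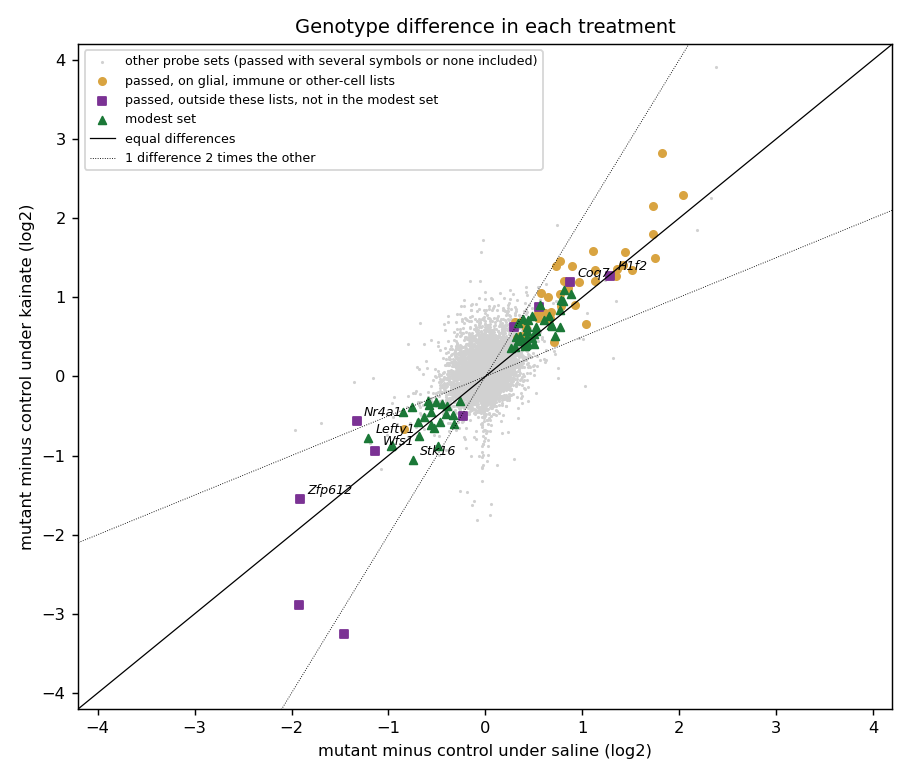
Each point is 1 probe set, with the mutant minus control difference (log2) under saline on the horizontal and under kainate on the vertical axis, the solid line marking equal differences and the dotted lines a ratio of 2. The 58 modest probe sets (triangles) lie between the dotted lines, as their choice requires, while Nr4a1, Dctn3, Gspt2 and 1 Nr4a2 probe set (squares) lie beyond them.

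The lower genes are ordered by hand by their known roles, with no test of the grouping, beginning with organelles and transport. Rmdn3, a protein of the mitochondrial outer membrane that tethers mitochondria to the endoplasmic reticulum, ran from 7.81 to 8.27 on control arrays (median 7.95) and from 6.89 to 7.26 on mutant arrays (median 7.02). Every mutant array lay below every control array, and the difference was -0.93 (SE 0.06, adjusted p = 7.88e-05), with -0.97 under saline and -0.88 under kainate. Stk16, a lipid-anchored kinase of the Golgi, ran from 7.70 to 8.19 in controls (median 7.91) and from 6.71 to 7.25 in mutants (median 7.07), again with no overlap. It fell by 0.90 (SE 0.09, adjusted p = 0.000786). A dimmer Stk16 probe set (percentile 35.2 of the array) did not pass, at -0.23 (adjusted p = 0.581). Kif5c, a neuronal heavy chain of the motor kinesin, ran from 4.27 to 5.95 in controls (median 5.26) and from 3.60 to 5.23 in mutants (median 4.60). Its groups overlapped widely, while each pair of arrays differed in the same direction, as the choice required. The difference was -0.68 (SE 0.12, adjusted p = 0.0238). Its call was lost in 7 of the 12 fits with an array left out (highest adjusted p = 0.0771, without mutant kainate replicate 2) and without the replicate term (adjusted p = 0.601).

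Sez6, Rgs14 and Prkcb are known from neurons. Sez6, a membrane protein of neurons that shapes dendrites and excitatory synapses, ran from 9.88 to 10.46 in controls (median 10.06) and from 9.40 to 9.79 in mutants (median 9.48). The groups did not overlap, and the replicate 1 arrays were the highest in each of the 4 groups. Sez6 fell by 0.57 (SE 0.06, adjusted p = 0.000786), and by 0.63 under saline and 0.51 under kainate. Rgs14, a regulator of G protein signalling known from CA2 pyramidal neurons, ran from 8.68 to 9.27 in controls (median 8.95) and from 8.29 to 8.85 in mutants (median 8.50), with overlap. The list of 17 CA3 and CA2 pyramidal neuron markers gave 1 call lower, Rgs14, and 1 higher, Bok, described below. That list had a median of -0.06 and 8 positive differences, and of all 8251 genes 1.2% passed. Rgs14 fell by 0.39 (SE 0.07, adjusted p = 0.0274), a call lost in 9 of 12 fits with an array left out (highest adjusted p = 0.0952, without mutant kainate replicate 3). Prkcb, the beta isoform of protein kinase C, had the smallest difference of all that passed: control arrays ran from 12.02 to 12.26 (median 12.06) and mutant arrays from 11.66 to 11.96 (median 11.79). The groups did not overlap and the difference was -0.28 (SE 0.05, adjusted p = 0.0291), but the call was lost in 11 of 12 such fits (highest adjusted p = 0.112, without control kainate replicate 2). A second Prkcb probe set stood at -0.58 (adjusted p = 0.0681).

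Lefty1, a secreted antagonist of Nodal signalling in the TGF-beta family, ran from 3.89 to 5.05 in controls (median 4.52) and from 3.40 to 3.52 in mutants (median 3.49). The mutant arrays lay close together below all control arrays, and below the array medians of 4.23 to 4.47, so the probe set was dim in mutants. Lefty1 fell by 0.99 (SE 0.17, adjusted p = 0.0238), and the call was lost in 7 of 12 fits with an array left out (highest adjusted p = 0.077, without mutant saline replicate 3). A second, dimmer probe set stood at -0.09. Lefty1 and Wfs1 were the 2 members that passed of 11 CA1 pyramidal neuron markers, a list with a median of -0.23 and 1 positive difference, where the median of all 8251 genes was -0.04 and 40.7% were positive. By the same representation of each gene by its brightest probe set, 1.2% of all genes passed, 0.861% higher and 0.339% lower.

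Nolc1, Imp3 and Mrm3 act in the nucleolus or on ribosomal RNA. Nolc1, a nucleolar phosphoprotein that serves small nucleolar ribonucleoproteins, ran from 5.56 to 6.47 in controls (median 5.75) and from 5.04 to 5.75 in mutants (median 5.28). The groups overlapped because the replicate 1 arrays were the highest of each group. All 6 pairs with the same treatment and number differed in the same direction, as the choice required. Nolc1 fell by 0.59 (SE 0.06, adjusted p = 0.00167), while without the replicate term its adjusted p was 0.377. Imp3, a protein of the U3 ribonucleoprotein that processes ribosomal RNA, ran from 7.70 to 8.32 in controls (median 8.19) and from 7.18 to 7.67 in mutants (median 7.53). The groups did not overlap, the 3 control saline arrays lay highest, and Imp3 fell by 0.64 (SE 0.08, adjusted p = 0.00297). Mrm3, a methyltransferase of mitochondrial ribosomal RNA, ran from 5.13 to 5.91 in controls (median 5.85) and from 4.67 to 5.32 in mutants (median 5.06). A single control array reached into the mutant range, and Mrm3 fell by 0.72 (SE 0.12, adjusted p = 0.0158), a call lost in 4 of 12 fits with an array left out (highest adjusted p = 0.056, without mutant kainate replicate 2). A dimmer Mrm3 probe set stood at -0.18 and did not pass. These were the 3 members that passed of 37 genes of ribosome biogenesis and RNA modification, all lower. Of all 8251 genes 0.339% passed lower and 0.861% higher. The median of the list was 0.03 and 19 of its genes were positive.

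Zcrb1 and Rnps1 were lower genes of messenger RNA processing, as was Sf3b5, given below. Zcrb1, a zinc finger protein of the minor spliceosome, ran from 7.75 to 8.23 in controls (median 8.01) and from 7.31 to 7.73 in mutants (median 7.69). The groups just failed to overlap, and Zcrb1 fell by 0.40 (SE 0.05, adjusted p = 0.00449). Rnps1, a component of the exon junction complex, ran from 7.80 to 8.85 in controls (median 8.43) and from 7.56 to 8.28 in mutants (median 7.83), with overlap. Rnps1 fell by 0.45 (SE 0.07, adjusted p = 0.012), by 0.59 under saline and 0.31 under kainate. It was also the 1 of the 58 that passed for kainate in controls, where it fell by 0.51 (SE 0.08, adjusted p = 0.037) and where 0.386% of all probe sets passed. Neither Zcrb1 nor Rnps1 stood on the list of 44 splicing factors, of which 0 passed and 4 had an unadjusted p under 0.05, with a median of 0.07. Of all 8251 genes 1.2% passed and 887 had an unadjusted p under 0.05 in limma.

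The remaining named lower genes act in metabolism and survival or are of unlike function. Guk1, the kinase that turns GMP into GDP, ran from 9.51 to 9.99 in controls (median 9.62) and from 8.95 to 9.36 in mutants (median 9.17), without overlap. It fell by 0.52 (SE 0.08, adjusted p = 0.0128). Rtl6, a gene derived from a retrotransposon, ran from 7.63 to 8.06 in controls (median 7.91) and from 6.64 to 7.15 in mutants (median 6.99). The groups lay 0.49 apart, and Rtl6 fell by 0.92 (SE 0.11, adjusted p = 0.00203). Bcl2l2, the antiapoptotic protein Bcl-w, ran from 7.63 to 8.42 in controls (median 8.06) and from 6.99 to 7.69 in mutants (median 7.51), with slight overlap. It fell by 0.57 (SE 0.09, adjusted p = 0.0173), by 0.76 under saline and 0.38 under kainate, and the call was lost in 7 of 12 fits with an array left out (highest adjusted p = 0.0605, without mutant kainate replicate 1).

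The other 8 lower members were Prkcb, described above, and 7 chosen for mention after their values were seen. These were the complex I subunit Ndufs4 (-0.42), the splicing factor subunit Sf3b5 (-0.58), the palmitoyl transferase Zdhhc3 (-0.65), the ubiquitin ligase adaptor Eloc (-0.47), Wdr61 (-0.51), Sowaha (-0.44) and D430019H16Rik (-0.46). Each of the 8 lost its call in at least 8 of the 12 fits with an array left out, and the highest adjusted p among those fits ran from 0.0877 for Zdhhc3 to 0.123 for Wdr61.

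**Figure D3:**
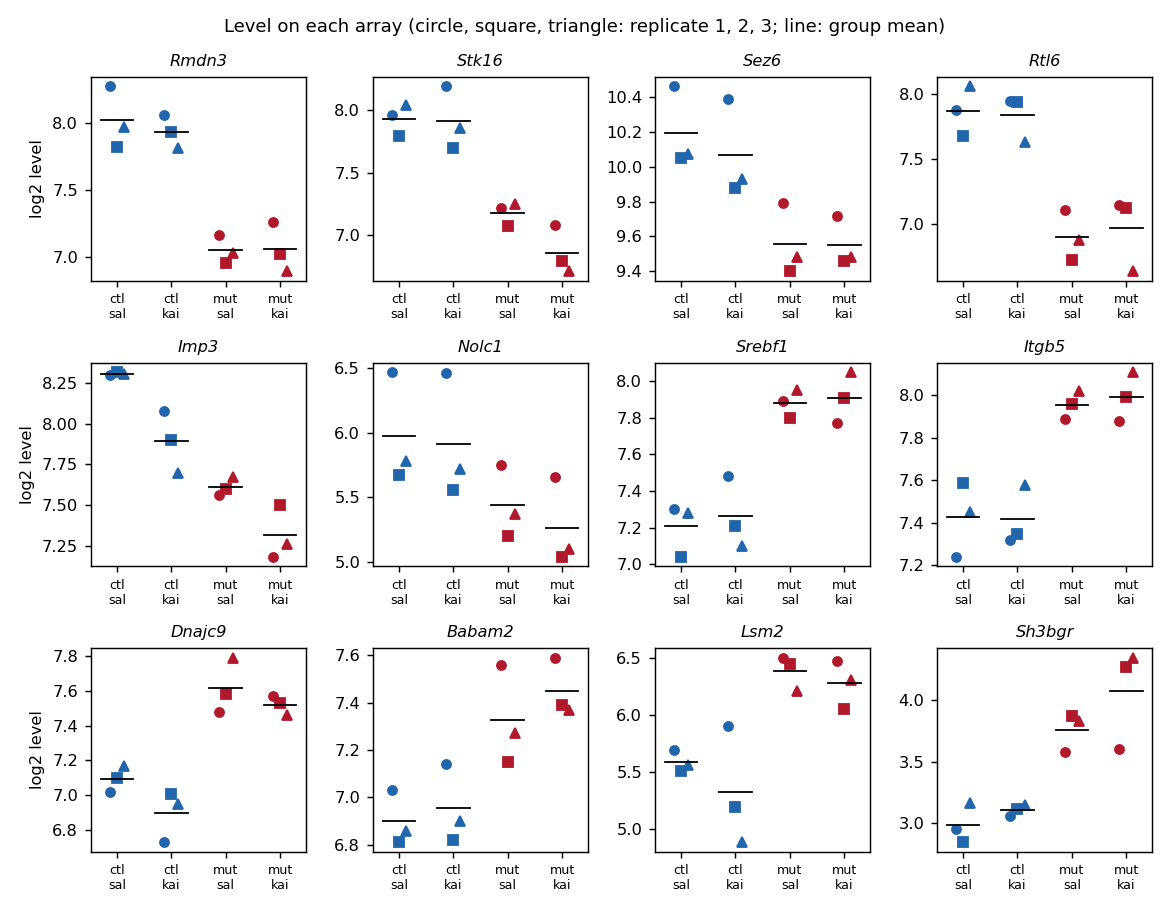
Log2 level on each of the 12 arrays for 6 genes lower and 6 genes higher in mutants (ctl control, mut mutant, sal saline, kai kainate), with a marker shape for each replicate number and a line at each group mean. The mutant arrays lie beyond all control arrays in every panel except that of Nolc1, where the replicate 1 arrays lie highest in each group.

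The higher genes are given by what they are known to do, a grouping made by hand and not tested. Tmem176a, a membrane protein of the CD20-like family found in dendritic cells and other tissues, ran from 6.76 to 7.31 in controls (median 7.01) and from 7.81 to 8.18 in mutants (median 7.99). The gap between the groups was 0.50, and the difference was 0.97 (SE 0.10, adjusted p = 0.00125). Tmem176b, its neighbour and partner, named after its values were seen, stood at 0.42 (adjusted p = 0.0355), again without overlap. Itgb5, the integrin beta 5 chain, ran from 7.24 to 7.59 in controls (median 7.40) and from 7.88 to 8.11 in mutants (median 7.97), without overlap. It rose by 0.55 (SE 0.06, adjusted p = 0.00167), by 0.53 under saline and 0.58 under kainate, while a dim second probe set stood at 0.04. Pros1, the anticoagulant protein S and a ligand of the receptors Tyro3 and Mertk, ran from 5.46 to 6.14 in controls (median 5.84) and from 6.17 to 6.65 in mutants (median 6.32). The groups just failed to overlap, and Pros1 rose by 0.52 (SE 0.08, adjusted p = 0.012). Cnn3, an acidic calponin that binds actin, ran from 10.14 to 10.77 in controls (median 10.54) and from 10.54 to 11.08 in mutants (median 10.95), with overlap. It rose by 0.39 (SE 0.06, adjusted p = 0.0158), a call lost in 5 of 12 fits with an array left out (highest adjusted p = 0.0565, without control kainate replicate 2).

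Absence from the marker lists does not make a gene neuronal. Itgb5, Rgs10 and the tetraspanin Cd9 are also known from microglia, and Fxyd1, S100a1 and Cnn3 from astrocytes, whose marker values are given above. Rgs10 stood at 0.41 (adjusted p = 0.0466), Cd9 at 0.40 (adjusted p = 0.0269), Fxyd1 at 0.71 (adjusted p = 0.0161) and S100a1 at 0.45 (adjusted p = 0.0388), the middle pair named after their values were seen. Whether these differences come from glial cells was not tested.

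The lipid genes that passed moved in both directions. Srebf1, the transcription factor that drives fatty acid and cholesterol synthesis, ran from 7.04 to 7.48 in controls (median 7.24) and from 7.77 to 8.05 in mutants (median 7.90). The groups lay 0.29 apart, and Srebf1 rose by 0.66 (SE 0.08, adjusted p = 0.00252), by 0.68 under saline and 0.65 under kainate. Abca1, which exports cholesterol from cells, ran from 7.31 to 8.25 in controls (median 7.58) and from 7.87 to 8.74 in mutants (median 8.48), with overlap. It rose by 0.73 (SE 0.13, adjusted p = 0.0238), and lost its call in 8 of 12 fits with an array left out (highest adjusted p = 0.0764, without mutant saline replicate 1). Cyp51, the lanosterol demethylase of cholesterol synthesis, ran from 6.41 to 6.74 in controls (median 6.59) and from 6.12 to 6.21 in mutants (median 6.19). The groups did not overlap, and Cyp51 fell by 0.41 (SE 0.07, adjusted p = 0.0158), a call lost in 4 of 12 such fits (highest adjusted p = 0.0617, without mutant kainate replicate 3). On the list of 26 genes of cholesterol synthesis, uptake and efflux these 2 passed higher and 1 lower. The other 23 did not pass. Of all 8251 genes 0.861% passed higher and 0.339% lower. An unadjusted p under 0.05 in limma was reached by 14 of the 26, and by 887 of all 8251 genes. The list's median was -0.15 and 7 of its genes (26.9%) were positive, against -0.04 and 40.7% over all genes.

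Nuclear and RNA genes were also among the higher ones. Dnajc9, a J-domain chaperone of histones, ran from 6.73 to 7.17 in controls (median 7.01) and from 7.46 to 7.79 in mutants (median 7.55). It rose by 0.57 (SE 0.07, adjusted p = 0.00209), with a gap of 0.29 between the groups. Lsm2, a subunit of the ring that binds U6 RNA and messenger RNA, ran from 4.88 to 5.90 in controls (median 5.53) and from 6.05 to 6.50 in mutants (median 6.37). The groups did not overlap, and Lsm2 rose by 0.88 (SE 0.12, adjusted p = 0.00447). Babam2, a scaffold of a BRCA1-associated deubiquitinase complex, ran from 6.81 to 7.14 in controls (median 6.88) and from 7.15 to 7.59 in mutants (median 7.38). Its groups were separated by 0.01 only, and it rose by 0.46 (SE 0.05, adjusted p = 0.00167). Cbfb, the partner of the RUNX factors, had 2 probe sets that passed. The brighter ran from 7.76 to 8.27 in controls (median 8.16) and from 8.47 to 8.80 in mutants (median 8.56), with a difference of 0.50 (SE 0.09, adjusted p = 0.0274), and the other stood at 0.57 (SE 0.08, adjusted p = 0.00627), both without overlap.

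Prpf6, a protein of the spliceosome, and Capn2, a calcium-activated protease, had the smallest higher differences. Prpf6 ran from 8.55 to 9.56 in controls (median 8.96) and from 8.98 to 9.88 in mutants (median 9.26). It rose by 0.34 (SE 0.07, adjusted p = 0.0428) with overlap between the groups. Capn2 ran from 7.76 to 8.19 in controls (median 7.96) and from 8.12 to 8.48 in mutants (median 8.26), and rose by 0.31 (SE 0.06, adjusted p = 0.0428). Both lost their calls in 10 of 12 fits with an array left out (highest adjusted p = 0.142 for Prpf6, without control saline replicate 2, and 0.141 for Capn2, without mutant kainate replicate 2).

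Other higher genes were of unlike function. Bok, a proapoptotic member of the Bcl2 family, ran from 7.71 to 8.35 in controls (median 7.92) and from 8.22 to 9.05 in mutants (median 8.62), with slight overlap. It rose by 0.69 (SE 0.11, adjusted p = 0.012). Bok and Bcl2l2 were the 2 members that passed of 42 Bcl2 family and apoptosis genes, 1 in each direction, beside a median of -0.06. Over all 8251 genes 1.2% passed. Pef1, a calcium-binding protein with EF hands, ran from 7.01 to 7.85 in controls (median 7.37) and from 7.83 to 8.35 in mutants (median 7.93), and rose by 0.62 (SE 0.08, adjusted p = 0.00252). Without the replicate term its adjusted p was 0.108. Sat1, which acetylates polyamines, ran from 7.57 to 8.39 in controls (median 8.07) and from 8.0 to 8.87 in mutants (median 8.48). It rose by 0.41 (SE 0.06, adjusted p = 0.0115), by 0.41 in both treatments, and its groups overlapped. Dtd1, a deacylase of D-aminoacyl-tRNAs, ran from 8.99 to 9.57 in controls (median 9.22) and from 9.29 to 10.02 in mutants (median 9.75), with overlap, and rose by 0.43 (SE 0.07, adjusted p = 0.0129).

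Dimmer probe sets call for more care. Cyp1b1, a cytochrome P450, ran from 3.88 to 4.11 in controls (median 3.93) and from 4.15 to 4.93 in mutants (median 4.56), rose by 0.56 (SE 0.09, adjusted p = 0.0132), and had a second probe set at -0.13. Its difference was 0.39 under saline and 0.73 under kainate (interaction 0.34, SE 0.15, unadjusted p = 0.0486, adjusted p = 0.899 in limma). Sh3bgr, a protein with an SH3-binding stretch, ran from 2.84 to 3.16 in controls (median 3.09) and from 3.58 to 4.35 in mutants (median 3.85). That probe set rose by 0.87 (SE 0.10, adjusted p = 0.00206) without overlap, at percentile 38.2 of the array. Its other probe sets disagreed: a brighter one (percentile 52.8) stood at -0.25 (SE 0.31) and the third at -0.12, so that Sh3bgr as a gene has no settled direction here.

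The last higher members include a coactivator of the lost factors. Fhl2, a LIM protein known as a coactivator of CREB and CREM, ran from 5.80 to 7.09 in controls (median 6.61) and from 7.16 to 8.01 in mutants (median 7.44). Chosen for mention after its values were seen, it stood at 0.95 (SE 0.16, adjusted p = 0.0173, no overlap) and was the 1 that passed of 22 genes of the CREB and ATF family and coactivators, which had a median of -0.02. Itpkb, an inositol trisphosphate kinase, stood at 0.41 (adjusted p = 0.0493). With S100a1 and Prkcb it made the 2 higher and 1 lower calls among 35 calcium and calmodulin signalling genes (median -0.08). Rgs10 and Rgs14 passed in opposite directions among 43 G protein regulators and small GTPases (median 0.02). Beside these list counts, 1.2% of all 8251 genes passed, 0.861% higher and 0.339% lower. Larp7, an RNA-binding protein, at 0.81 (adjusted p = 0.0446), and both probe sets of S100a13, at 0.48 and 0.62, were chosen in the same way as Fhl2. So were the remaining 6 genes, the membrane-associated protein Plekho1 (0.66), the neuronal protease Prss12 (0.66), the sorting protein Vps37b (0.50), the proton pump subunit Atp6v0e (0.44), the phospholipid-binding annexin Anxa5 (0.42) and the Wnt inhibitor Apcdd1 (0.53). Each of these 6 lost its call in at least 4 of the 12 fits with an array left out.

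**Figure D4:**
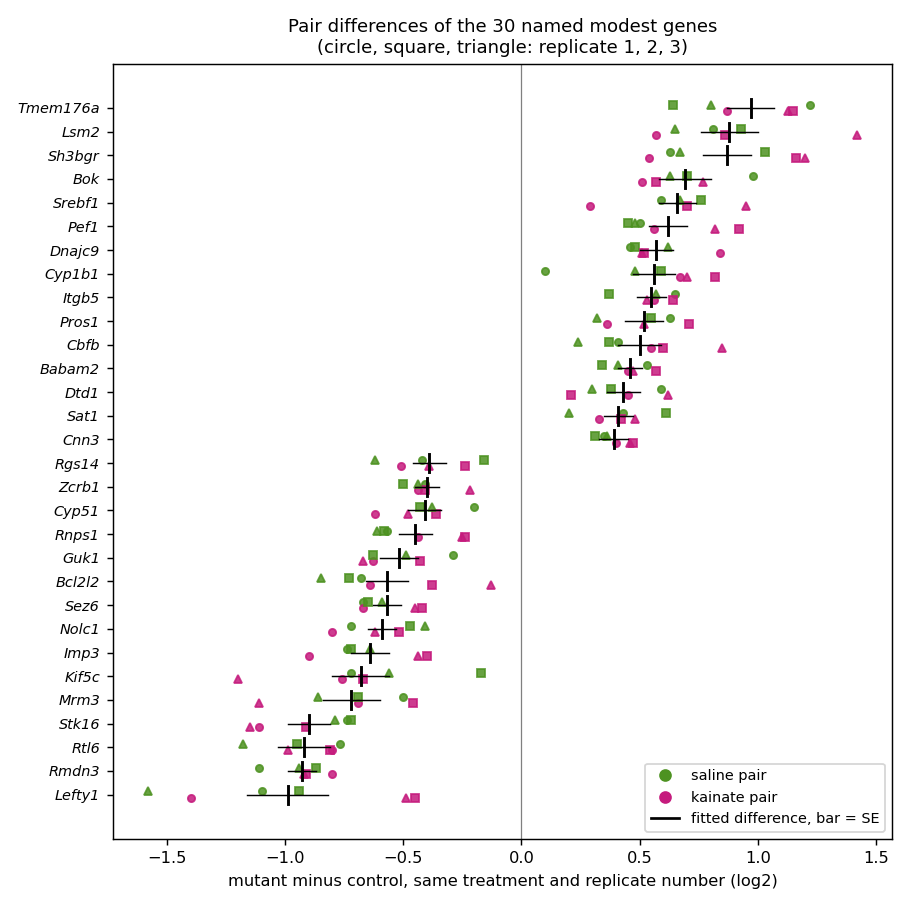
Mutant minus control difference (log2) of each of the 6 pairs of arrays with the same treatment and replicate number, for the 15 higher and 15 lower modest genes with the smallest p, with the fitted difference (vertical bar) and its SE (horizontal bar). All pair differences lie on the side of the fitted difference, as the choice requires, and saline and kainate pairs are mixed.

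Since CREB and CREM act through the cAMP response element, promoters were searched for its letters, TGACGTCA, which read the same on both strands, and for the shorter TGACG on either strand, which the former contains. RefSeq promoters of GRCm38.p6, read over the 250 bases before the gene start, were on hand for 6576 of 8251 measured genes. TGACGTCA stood in 177 of these (2.69%) and TGACG in 1863 (28.3%). Of the lower genes outside the marker lists 18 of 28 had a promoter, and TGACGTCA stood in 2 (11.1%) and TGACG in 8 (44.4%). Among the higher genes outside the lists it stood in 3 of 34 (8.82%) and TGACG in 7 (20.6%), and among the higher genes on the lists in 0 of 27 (0.0%) and in 6 (22.2%). The counts are too few to read a difference between directions from them, and a match of letters is no evidence of binding. The 5 genes are shown because they hold the whole palindrome and passed, on the strand of the gene from 30 bases before the element (capitals) to 30 after it, or to the gene start where that came first.
Kif5c (chr2:49619230-49619285, + strand, log2 difference -0.68): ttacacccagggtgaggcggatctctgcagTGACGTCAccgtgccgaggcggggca
Mrm3 (chr11:76243686-76243735, + strand, log2 difference -0.72): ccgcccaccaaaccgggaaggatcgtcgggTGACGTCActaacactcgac
Lsm2 (chr17:34982066-34982129, + strand, log2 difference 0.88): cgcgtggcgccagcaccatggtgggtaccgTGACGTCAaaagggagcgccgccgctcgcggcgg
Larp7 (chr3:127553433-127553500, - strand, log2 difference 0.81): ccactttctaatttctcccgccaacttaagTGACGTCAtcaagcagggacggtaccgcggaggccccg
Dctn3 (chr4:41723207-41723274, - strand, log2 difference 0.46): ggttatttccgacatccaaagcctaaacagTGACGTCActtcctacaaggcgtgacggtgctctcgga
The element began 26 bases before the start of Kif5c, 20 before that of Mrm3, 34 before that of Lsm2, 121 before that of Larp7 and 81 before that of Dctn3. In this group of 5, genes with the element close to their start were thus found both among those lower and among those higher in mutants.

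The strong end outside the marker lists was short. H1f2, a linker histone, had the smallest p of all probe sets: control arrays ran from 6.69 to 6.90 (median 6.74) and mutant arrays from 7.91 to 8.15 (median 8.06). The groups lay 1.01 apart and H1f2 rose by 1.28 (SE 0.05, adjusted p = 3.81e-06), by 1.29 under saline and 1.27 under kainate. It was the 1 that passed of 13 measured histone genes, whose median was -0.07, and of all 8251 genes 1.2% passed. Coq7, an enzyme of ubiquinone synthesis, ran from 6.50 to 7.33 in controls (median 7.17) and from 7.99 to 8.15 in mutants (median 8.06), and rose by 1.03 (SE 0.12, adjusted p = 0.00209) without overlap. Wfs1, an endoplasmic reticulum protein of CA1 neurons, ran from 9.46 to 9.99 in controls (median 9.68) and from 8.10 to 9.06 in mutants (median 8.66), and fell by 1.04 (SE 0.13, adjusted p = 0.00392). Zfp612, a zinc finger gene, ran from 4.25 to 6.66 in controls (median 5.76) and from 3.51 to 4.09 in mutants (median 3.97). It fell by 1.73 (SE 0.28, adjusted p = 0.0161), and lost its call in 2 of 12 fits with an array left out (highest adjusted p = 0.0541, without mutant kainate replicate 2).

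A few genes passed with uneven differences in the 2 treatments. The nuclear receptor gene Nr4a1, induced by neuronal activity, fell by 1.33 under saline and 0.57 under kainate, and by 0.95 over both (SE 0.15, adjusted p = 0.015). The interaction was 0.76 (SE 0.20, unadjusted p = 0.00332, adjusted p = 0.899 in limma). Its relative Nr4a2 stood at -1.93 under saline and -2.89 under kainate by its brighter probe set, and at -1.46 and -3.26 by the other. Averaged over treatments these were -2.41 (SE 0.27, adjusted p = 0.00167) and -2.36 (SE 0.43, adjusted p = 0.0306). Dctn3, a subunit of dynactin, stood at 0.30 and 0.63, with 0.46 overall (SE 0.08, adjusted p = 0.0269), and Gspt2, a translation termination factor, at -0.23 and -0.50, with -0.37 overall (SE 0.07, adjusted p = 0.0427). Both lost their calls with arrays left out, Dctn3 in 7 fits (highest adjusted p = 0.0867, without control kainate replicate 2) and Gspt2 in 10 (highest adjusted p = 0.13, without mutant kainate replicate 2).

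Among lists of CREB biology 4 of 52 known CREB target genes passed, Nr4a2, Penk, Nr4a1 and Cyp51, all lower, and 0 passed higher. Of all 8251 genes 0.339% passed lower and 0.861% higher. In either direction 16 of the 52 had an unadjusted p under 0.05 in limma, against 887 of all 8251 genes. The list median was -0.07, and that of all genes -0.04. Penk, the precursor of enkephalin peptides, ran from 8.58 to 8.94 in controls (median 8.77) and from 7.47 to 8.44 in mutants (median 8.13). It fell by 0.75 (SE 0.11, adjusted p = 0.0117) without overlap, and its other probe sets each stood at -0.12. Of 37 immediate early genes, which overlap with the former list, 2 passed lower, Nr4a2 and Nr4a1, with a median of -0.02. In either direction 16 of the 37 had an unadjusted p under 0.05 in limma. Of 30 genes of cAMP and protein kinase A signalling 0 passed in limma and 2 had an unadjusted p under 0.05 (median 0.05).

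Neuronal lists gave few single calls, and their medians lay on both sides of the median of all genes. That median was -0.04, with 40.7% of genes positive, while probe sets above the median level had a median of 0.04. Of all 8251 genes 1.2% passed, and 887 had an unadjusted p under 0.05 in limma. With lists of the lengths given here, 0 calls lie near that share. Of 26 glutamate receptor and postsynaptic scaffold genes 0 passed and 6 had an unadjusted p under 0.05, with a median of -0.10 and 15.4% positive. Voltage-gated and related ion channels gave 0 of 43 (6 at an unadjusted p under 0.05, median -0.07), receptors of GABA and glycine 0 of 21 (0 at an unadjusted p under 0.05, median -0.06) and synaptic vesicle genes 0 of 44 (9 at an unadjusted p under 0.05, median -0.08). Of 53 general neuron markers Kif5c passed (median -0.03), and of 22 interneuron markers 0 passed (1 at an unadjusted p under 0.05, median 0.03). Housekeeping lists had medians at or slightly above 0, with 0.02 for 32 cytosolic ribosomal proteins, 0.05 for 50 translation factors and tRNA synthetases and 0.06 for 54 proteasome and ubiquitin genes, and 0 passed in each (5, 3 and 6 at an unadjusted p under 0.05). Of 66 respiratory chain genes Ndufs4 passed (median -0.01). These medians are small beside the differences of the named genes, and were not tested.

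**Figure D5:**
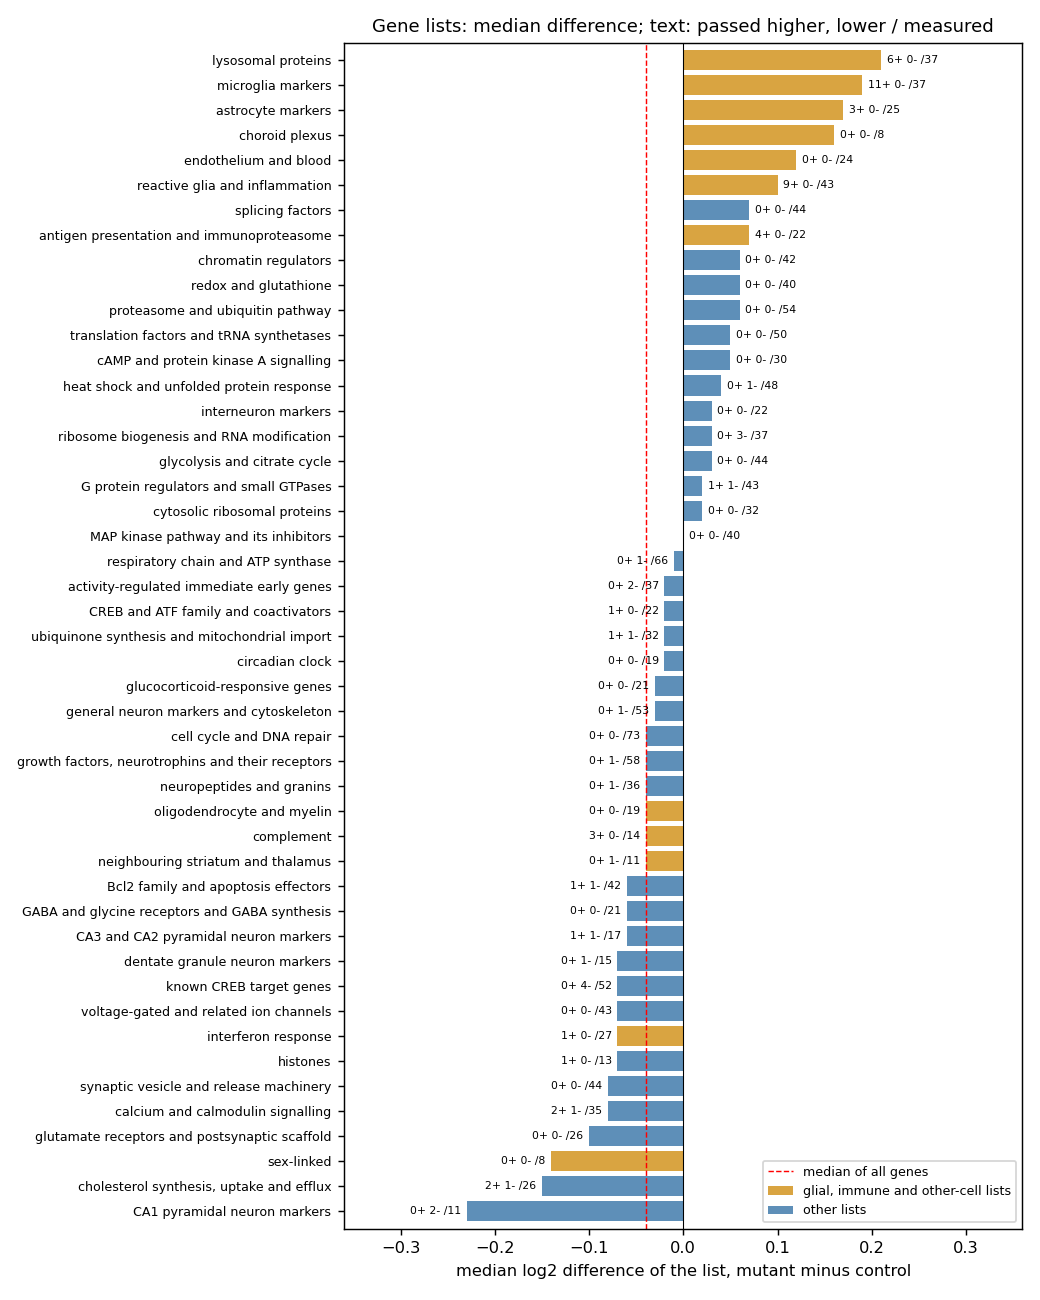
Median log2 difference, mutant minus control, of each of 47 gene lists, each gene taken by its brightest probe set, with the numbers passing higher (+) and lower (-) and the number measured beside each bar. The 5 longest positive bars belong to glial and other-cell lists, the CA1 pyramidal neuron list has the lowest median at -0.23, and the dashed line marks the median of all genes at -0.04.

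The size of the kainate effect was no condition for the modest members, but their choice limited how far that effect could differ between the genotypes. In controls it had a median size of 0.19 over the 58 probe sets and reached at most 0.54, and in mutants it had a median of 0.13 and reached at most 0.67. Over all probe sets above the median level, where most members lie, the median sizes were 0.17 and 0.15. In limma 1 of the 58 passed in controls, Rnps1, and 0 passed in mutants, where 0.354% of all probe sets did. Position on the genome was read next, because alleles close to a disrupted gene travel with it in crosses. Of the 100 measured genes nearest to Creb1 on chromosome 1, 50 on each side, Fhl2 and Stk16 passed (2.0%), and none of the nearest 50 (25 on each side) did. Of the 50 measured genes nearest to Crem on chromosome 18, 0 passed. These counts lie near the 1.2% that passed of all 8251 genes. The strains of the animals are not given in the sources used here, so the part of linked alleles was not tested.

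Not every call among the modest members was equally firm. In limma 23 of the 58 probe sets, 14 higher and 9 lower, passed with all arrays and with each array left out. Among the named genes these were Tmem176a, Itgb5, Babam2, Sh3bgr, Dnajc9, Pef1, Srebf1, Lsm2, Sat1, Pros1, Bok, Dtd1 and Cyp1b1 on the higher side and Rmdn3, Stk16, Sez6, Nolc1, Rtl6, Imp3, Zcrb1, Rnps1 and Guk1 on the lower side. The further higher probe set was the second one of Cbfb. Of these genes Rmdn3 kept the lowest adjusted p, which was 0.000753 at most with an array left out, and Cyp1b1 came closest to the threshold, with 0.049 without control kainate replicate 2.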

How the data were processed

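RNA was measured on Affymetrix MG-U74A arrays. The authors deposited log2 levels, computed by GCRMA under R 2.4.1 per the submitters' processing notes. GCRMA subtracts background and summarises probe sets, so levels near the floor are compressed. Its version is not given in the sources used here, nor is the set of arrays it was run on. The number of arrays limits the precision.

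Values were used as deposited, with no filter on level. The table held 12488 probe sets, and 66 controls were left out. The platform annotation gave 1 symbol for 10833 probe sets, several for 396 and none for 1193, and 10817 of the single symbols matched RefSeq (GRCm38.p6). The fit in limma 3.58.1 (R 4.3.3) had genotype, treatment and replicate number as additive terms (7 residual and 3.18 prior degrees of freedom), and was tested on simulated data. Tests were two-sided. Differences within treatments and the interaction came from 4 group means plus the replicate term. The replicate term is part of how the comparison was defined.

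Members, 47 gene lists and the naming rule were chosen with earlier results of these data known. Named were Creb1 and Crem, the 15 modest genes with the smallest p in each direction, up to 5 strong and 4 uneven ones per direction, up to 4 passing members of lists with 2 or more, and the 5 smallest differences. List genes were taken by their brightest probe set. Nothing says whether pools came from separate litters, so p measures the spread between pools. The alternatives were no replicate term, 4 group means, replicate 1 against 2 and 3, replicates 2 and 3 only, each treatment alone, quantile normalisation, median centring, array weights, averaging per gene, a robust prior with an intensity trend, a test against a 1.2-fold change, probe sets brighter than the median, and each array omitted in turn.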

Additional observations from a re-analysis of the deposited data

Results flagged for a closer look

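In each named probe set the highest and lowest of the 6 arrays of a genotype were compared with the rest by Dixon's ratio (critical value 0.625). Of 146 such groups 11 had an outlying array, and chance gives about 1 in 20. The control kainate replicate 3 array was the highest control array for the 3 Creb1 probe sets, at 3.26, 3.74 and 4.34, where the next arrays stood at 2.99, 3.26 and 4.01. It was also the highest control array for Mpeg1, a macrophage gene, at 7.19 (next 6.85). The control kainate replicate 2 array was the lowest control array for Mrm3 at 5.13 (next 5.80) and for the lysosomal protease gene Ctsd at 8.89 (next 9.23), and mutant kainate replicate 2 was the lowest mutant array for Ctsd at 9.61 (next 9.95). Mutant saline replicate 3 was the highest mutant array for Dnajc9 at 7.79 (next 7.58), mutant kainate replicate 1 the lowest for Bcl2l2 at 6.99 (next 7.43), and mutant saline replicate 1 the lowest for Nr4a2 at 4.13 (next 5.19). Control saline replicate 3 was the highest control array for Prkcb at 12.26 (next 12.11).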

How the results depend on the processing

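No named difference changed sign under any alternative run. Of their values under the alternatives, 1357 kept their side of the threshold, 460 no longer passed and 1 came to pass (Crem, adjusted p = 0.0499 with array weights). Without the replicate block 77 probe sets passed (57 higher, 20 lower; 29 modest), of which 75 were among the 123. The block rests on the definition of the comparison. Deviations of arrays with the same number from their group means correlated at medians of 0.596, 0.36 and 0.386, but 1 pair of replicate 3 stood at -0.0109. For different numbers the median was -0.369 and the highest value 0.568. Deviations sum to 0 within a group of 3, so positive values for the same number bring negative ones for different numbers. The contrast is therefore no test of the block. With replicates 2 and 3 only 35 passed (29 higher, 6 lower, 6 modest), and 39 when a fold change of at least 1.2 was asked for (31 and 8, 6 modest). A fit to the saline arrays alone gave 1 (1 higher, 0 lower, 0 modest, with 1511 at an unadjusted p under 0.05 in limma). A fit to the kainate arrays alone gave 22 (14 and 8, 0 modest). Quantile normalisation gave 60 lower and median centring 17. Array weights, which gave control kainate replicate 3 a weight of 0.02, gave 626 (345 and 281; 243 modest), 171 passing list genes against 60, and 6 interaction calls. With each array left out the counts ran from 79 to 225 for all calls, 58 to 129 higher, 19 to 96 lower, 29 to 106 modest, 41 to 80 list genes and 0 to 4 interactions, the highest always without control kainate replicate 3. The cause was not tested. The 6 arrays per genotype limit what could be called: the median SE was 0.0867.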
